A study of Mus musculus with 3 samples.

Results

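In 28 mouse genes of bone-marrow-derived macrophages, 1 transcript that GENCODE classes as a retained intron carried at least 50% of the gene's abundance in each of 3 libraries. The cells came from C57BL/6J mice, an inbred strain. They were given 100 ng/ml Lipid A, the membrane anchor of bacterial endotoxin and a ligand of TLR4, for 12 h. After a washout of 12 h they received 100 ng/ml Lipid A again for 20 min. Total RNA of the cytosolic fraction was sequenced after removal of ribosomal RNA. All 3 libraries belong to this 1 group, so every value is a level after the second stimulation. The labels call the libraries biological replicates but give them 1 donor identifier, so the spread between them may be technical. Libraries of naive or unstimulated cells, or of the nuclear fraction, were not analysed here.

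The members were chosen by their measured values. A member had a gene level of at least 10 TPM (abundance per length, scaled to a fixed sum in each library) in every library. It also had a protein-coding transcript and a retained-intron transcript with an IsoPct of at least 50 in every library. IsoPct is the percent of a gene's TPM that a transcript holds in the first of 2 sets of deposited transcript tables. Of 55450 annotated genes, 3837 reached the TPM minimum and 2436 of these had a transcript of both classes. The 28 members are 1.15% of these 2436 eligible genes. Because IsoPct and gene TPM chose the members, both are given as description and nothing is tested on them. With 1 group of 3 libraries an exact sign-flip test cannot go below p = 0.25, so no test across libraries was made.

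Introns are removed from a pre-mRNA by the spliceosome, which recognises the bases GT at the start and AG at the end of most introns. A transcript that keeps an intron is often held in the nucleus, and one that reaches the cytoplasm can be degraded by nonsense-mediated decay when the intron brings a stop codon into the reading frame. In macrophages and other blood cells, intron retention is known as a layer of control over gene expression during differentiation and activation. GENCODE gives the class retained_intron to a transcript model that holds intronic sequence of another model of the gene. Such a model need not span a whole intron, and many are fragments that begin or end inside one.

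Of the 28 leading retained-intron transcripts, 6 held at least 1 whole intron of a coding transcript, against 30.8% of the 2436 eligible genes. These were Rps20, Ncl, Tap2, Prelid1, Sugt1 and Tmem132a. The 5 introns of up to 200 bases are printed because these transcripts hold them and the spliced mRNA does not. The transcripts also lack bases at the ends of the coding transcript, such as 6464 of 7392 at the 3′ end in Sugt1. They are in the sense of the gene, from GENCODE M21 transcript sequences on mm10, with the first and last pair of intron bases in capitals.
Rps20, intron 1 of 3 of the coding transcript, chr4:3835292-3835483, minus strand: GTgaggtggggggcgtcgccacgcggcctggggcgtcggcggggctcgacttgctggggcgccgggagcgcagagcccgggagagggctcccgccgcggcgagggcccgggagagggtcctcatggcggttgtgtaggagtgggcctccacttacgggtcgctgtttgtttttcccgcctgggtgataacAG
Ncl, intron 10 of 13, chr1:86352320-86352509, minus strand: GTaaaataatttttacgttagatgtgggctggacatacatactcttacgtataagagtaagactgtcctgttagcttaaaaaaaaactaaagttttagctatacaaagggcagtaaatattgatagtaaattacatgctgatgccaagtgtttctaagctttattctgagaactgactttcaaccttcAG
Tap2, intron 6 of 11, chr17:34212068-34212229, plus strand: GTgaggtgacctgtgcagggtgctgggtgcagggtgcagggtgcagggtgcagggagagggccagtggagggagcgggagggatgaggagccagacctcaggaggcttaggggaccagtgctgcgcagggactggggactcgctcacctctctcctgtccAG
Prelid1, intron 3 of 4, chr13:55324445-55324526, plus strand: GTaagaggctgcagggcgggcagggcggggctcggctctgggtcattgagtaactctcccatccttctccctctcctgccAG
Sugt1, intron 1 of 12, chr14:79587867-79587953, plus strand: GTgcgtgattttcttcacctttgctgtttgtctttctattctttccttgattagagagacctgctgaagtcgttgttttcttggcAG

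The other 22 members spanned no whole coding intron. In 19 of them the transcript began inside an intron and ran on into exon sequence of a coding transcript. In Gm21188 and Rab8a it ended inside an intron, and in Timm17a only 4 bases lay outside coding exons. The first 30 bases of 3 such transcripts are printed to show how little intron sequence they can hold. Lower case marks intron bases and capitals mark bases of coding exons.
Grcc10, chr6:124740686-124740715, minus strand: gggatgcttccgtctcgcagTGGTCCTGGC
Ufm1, chr3:53863660-53863689, minus strand: ttctcgttctctccggcagGTCGAAGGTGT
Sri, chr5:8059342-8059371, plus strand: tttttttaaagGACGGACAAATTGATGCTG
Each of the 3 starts a few bases before an exon, with 20 intron bases in Grcc10, 19 in Ufm1 and 11 in Sri. In each the intron bases end in ag. In every one of these 3 transcripts the remaining bases were exon sequence shared with coding transcripts.

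The 3 libraries held 32051209 to 47857692 expected counts (estimated reads) on annotated genes. In each library all 14 macrophage markers exceeded 1 TPM, and their median was 427 TPM. Of markers of other lineages, 2 of 8 for neutrophils, 1 of 5 for B cells, 0 of 6 for T and NK cells and 0 of 6 for stromal and endothelial cells reached 1 TPM in every library. Their summed levels were 8.47 to 17.2, 1.5 to 3.05, 0.07 to 0.29 and 0.75 to 1.69 TPM, against 8443 to 10247 TPM for the macrophage list. Replicate 2 stood apart in RNAs that reside in the nucleus. Malat1, a long non-coding RNA of nuclear speckles, was at 612, 156 and 637 TPM in replicates 1, 2 and 3. Retained-intron transcripts of all genes together took 1.81%, 1.19% and 1.44% of expected counts in the same order.

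The part of nuclear RNA in the members' shares was not tested. As a description of the values that chose the members, their median IsoPct was 62.6, 63.1 and 61.2 in replicates 1, 2 and 3, with a mean of 62.3 ± 0.975 (SD, n = 3). IsoPct was highest in replicate 1 for 8 members, in replicate 2 for 10 and in replicate 3 for 10. By the rule itself the members lie above the middle of all eligible genes, where the leading retained-intron transcript had a median share of 0.837%. Mean shares ran from 50.4% in Xpnpep1 to 94.1% in Mrpl57.

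**Figure D1:**
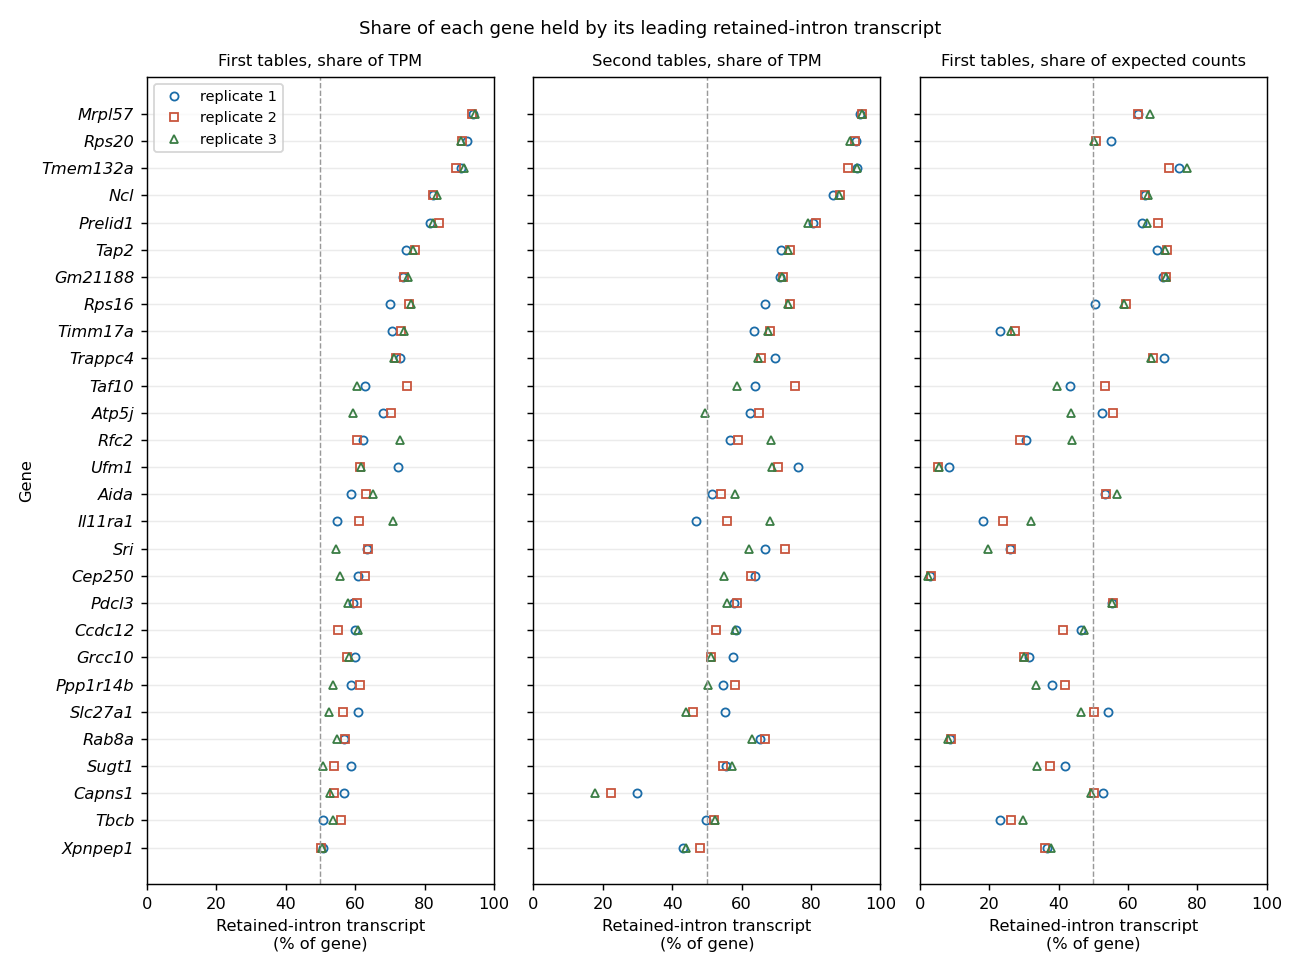
Percent of each of the 28 members held by its leading retained-intron transcript, 1 marker per library and a dashed line at 50%, as share of TPM in the first and second tables and as share of expected counts in the first. Mrpl57, Rps20 and Tmem132a lie at the top in both sets of tables, Capns1 falls lowest in the second, and the counts spread from under 10% in Cep250, Ufm1 and Rab8a to 74.4% in Tmem132a.

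The members just inside the limit were Xpnpep1, at 50.6%, 50.1% and 50.3% in replicates 1, 2 and 3, Tbcb, at 50.6%, 55.9% and 53.7%, and Sugt1, at 58.8%, 53.9% and 50.7%. Just outside it lay Mtch1, at 49.3%, 52.7% and 56.2%, Usp15, at 48.03%, 52.8% and 49.9%, and Nmd3, at 47.98%, 61.6% and 56.4%. The widest SDs of members over libraries were 8.12 percentage points in Il11ra1, 7.75 in Taf10 and 6.66 in Rfc2.

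Rps20, Rps16, Mrpl57 and Ncl are described first, as genes of ribosomes and their assembly. Rps20, a protein of the small ribosomal subunit, was the most abundant member, with a gene level of 185, 169 and 155 TPM in replicates 1, 2 and 3 (169.8 ± 15.2, SD, n = 3). Its 582-base retained-intron transcript, which keeps the first intron, held 92.3%, 90.7% and 90.5% of that level. The 3 shares lay within 2 percentage points although the gene level was lowest in replicate 3. Of the estimated reads, the same transcript took 55.0%, 50.9% and 50.2%. The only coding transcript annotated here is 3706 bases long and runs 3139 bases past the 3′ end of the retained-intron one. Its reads were thus split almost evenly between both transcripts, while its TPM, which is scaled by length, lay mostly on the shorter one.

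Mrpl57, a protein of the mitochondrial ribosome, had the highest share, at 94.0%, 93.8% and 94.7% of 21.6, 20.8 and 19.2 TPM. Its retained-intron transcript is a single exon of 519 bases at chr14:57826430-57826948 (plus strand), of which 79 lie before the exon of the coding transcript. The coding transcript, of 2877 bases, ran 2348 bases further. The retained-intron model took 62.8%, 62.7% and 66.3% of the gene's reads, so it led by reads as well as by TPM in every library.

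Ncl encodes nucleolin, a nucleolar protein that binds RNA and takes part in ribosome assembly. Its retained-intron transcript was at 27.0, 31.02 and 38.7 TPM in replicates 1, 2 and 3, and held 82.3%, 82.6% and 83.6% of the gene. The level was highest in replicate 3 and lowest in replicate 1, while the shares lay close together. This transcript has 12 exons and 3072 bases, and keeps introns 9 and 10 of the coding transcript, of 492 and 190 bases. It took 64.7%, 64.8% and 65.7% of the reads.

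Rps16, another protein of the small subunit, had a gene level of 125, 154 and 116 TPM. Its 518-base retained-intron transcript held 69.9%, 75.6% and 76.2%, lowest in replicate 1, and 50.4%, 59.4% and 58.8% of reads. It starts 68 bases before an exon and keeps no whole intron. Of its 31-base windows, 74.8% also occur in transcripts of other genes, foremost Rps16-ps2 at 20.9, 23.3 and 22.4 TPM, so reads may be divided between these loci and the value is uncertain.

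Of 18 gene lists, those of ribosomal protein genes and of hosts of small nucleolar RNAs held a member. Of 64 eligible ribosomal protein genes, 2 were members, and the highest of the others was Rpl15 with a mean share of 43.8%. The list's median share was 0.22%. Of 31 eligible hosts, Rps20 and Ncl were members, and the list's median was 0.643%. Small RNA genes lie within the span of the retained-intron transcripts of Ncl, Rps20, Rps16 and Gm21188, and none lies in a retained whole intron. The chosen lists of genes that act on splicing or on RNA with retained introns, which do not include the member Ccdc12, had no member: 0 of 11 SR proteins and CLK kinases, 0 of 17 hnRNPs and helicases, 0 of 17 core and 0 of 2 minor spliceosome genes, 0 of 2 nonsense-mediated decay genes and 0 of 6 export genes. The highest share among these lists was 36%, in Snrpa, a protein of the U1 particle. Lists of the macrophage response also had none, with 0 of 16 interferon-stimulated, 0 of 9 NF-kB, 0 of 15 lysosomal, 0 of 7 decay and translation control and 0 of 4 macrophage identity genes. With members at 1.15% of eligible genes, lists of this size hold few members or none at the background share.

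Among mitochondrial genes, Prelid1 had the highest share after Mrpl57. Prelid1, which moves phosphatidic acid between the mitochondrial membranes, was at 61.8, 66.1 and 56.6 TPM. Its retained-intron transcript, with an 82-base intron kept, held 81.5%, 84.3% and 82.4% of TPM and 64.0%, 68.5% and 65.4% of reads. Its TPM and its share were both highest in replicate 2. Its coding transcript starts 1519 bases further upstream.

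Atp5j, a coupling factor of the ATP synthase, varied more. Its retained-intron transcript was at 53.9, 47.4 and 30.6 TPM and held 68.0%, 70.4% and 59.3% of the gene, lowest in replicate 3. Timm17a, part of the translocase that imports proteins across the inner membrane, was at 20.2, 23.0 and 23.9 TPM with shares of 70.5%, 73.2% and 74.1%. Only 4 of the 565 bases of its leading transcript lie outside coding exons. It took 23.2%, 27.5% and 26.2% of reads. The longest of its 3 coding transcripts has 7280 bases, whereas the coding transcript with the largest share has 468.

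Tap2, a subunit of the transporter that carries peptides into the endoplasmic reticulum for MHC class I, is the member with the most direct role in immunity. Its gene level was 44.7, 26.5 and 43.1 TPM, with replicate 2 well below the others. The share of its retained-intron transcript stayed at 74.7%, 77.3% and 76.8%, and its share of reads at 68.4%, 71.2% and 70.6%. The transcript has 2561 bases and 11 exons and keeps the sixth intron, of 162 bases, in which a stop codon follows in frame from base 7. The coding transcripts together held 23.8% ± 1.40 (SD, n = 3).

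Il11ra1, the alpha chain of the interleukin-11 receptor, had the widest spread. Its gene level was 11.2, 13.5 and 21.9 TPM and its share 54.8%, 61.1% and 70.9%, both highest in replicate 3 (share 62.3% ± 8.12, SD, n = 3). Only 89.3, 197 and 388 expected counts lay on the retained-intron transcript. Of its 31-base windows, 68.6% occur in other genes, mostly Gm13305, which is listed at 0 TPM in all 3 libraries.

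Among nuclear proteins, Taf10 is shared by the transcription complexes TFIID and SAGA, Ccdc12 associates with the spliceosome and Rfc2 is part of the clamp loader of DNA replication. The Taf10 transcript held 62.8%, 74.97% and 60.6%, highest in replicate 2, and further retained-intron transcripts of the gene held 29.7% ± 7.41 (SD, n = 3). The coding transcript of Taf10, of 4281 bases against 601, held 4.14% ± 0.488 of TPM. By reads the leading retained-intron transcript took 43.3%, 53.3% and 39.6%, and the coding share of reads was not computed. Rfc2 was at 62.4%, 60.7% and 73.0% of TPM, highest in replicate 3, with 20.5% ± 3.27 on further retained-intron transcripts. Ccdc12 lay closer to the limit, at 60.1%, 55.0% and 60.9%, and its coding transcripts held 40.7% ± 3.18.

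Among genes of traffic, folding and the cytoskeleton, the gap between the share of TPM and the share of reads was wide in some and narrow in others. Rab8a, a GTPase of vesicle transport, had 24.4, 22.4 and 18.2 TPM on its retained-intron transcript, or 56.8%, 57.2% and 54.9% of the gene. The same transcript took 8.68%, 9.06% and 8.23% of the gene's reads. It has 542 bases, against 4550 for the coding transcript. Cep250, a centrosomal protein that links centrioles, had the lowest share of reads of all members. Its 352-base transcript, 2 exons at chr2:155979558-155981445 (plus strand), held 60.8%, 63.0% and 55.7% of TPM with 52.7, 103 and 95.6 of the 1854, 3103 and 3917 expected counts of the gene. That was 2.84%, 3.31% and 2.44% of the reads. Most other reads were not on coding transcripts, since another retained-intron transcript of the gene took at least 50% of them in every library. Further retained-intron transcripts held 26.0% ± 2.02 of TPM (SD, n = 3) and coding transcripts 14.2% ± 2.04. The leading coding transcript has 7977 bases.

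In Trappc4, a subunit of the TRAPP complex of vesicle transport, both measures lay close together. Its shares were 73.0%, 71.7% and 71.3% of TPM and 70.3%, 67.2% and 66.6% of reads. Pdcl3, a phosducin-like protein that aids folding, was likewise at 59.4%, 60.6% and 58.0% of TPM and 55.3%, 55.6% and 55.3% of reads. Sugt1, a partner of the chaperone HSP90, keeps its first intron of 87 bases. Its retained-intron transcript held 54.5% ± 4.06 of TPM (SD, n = 3) and took 37.8% ± 4.08 of reads. Transcripts of further classes held 38.6% ± 3.34 of TPM and the coding transcript 6.88% ± 0.737. The coding transcript has 7392 bases against 897 for the retained-intron one. TPM is scaled by length, so 6.88% is not the coding share of reads, which was not computed. Tbcb, a cofactor of tubulin folding, took 23.0%, 26.1% and 29.7% of reads at a TPM share of 53.4% ± 2.66.

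Signalling genes and enzymes among the members had mean shares from 50.4% in Xpnpep1 to 65.1% in Ufm1. Capns1, the small regulatory subunit of calpain proteases, was the most abundant of them, with 127, 119 and 94.3 TPM. Its retained-intron transcript, 9 exons at chr7:30186936-30192972 (minus strand), held 56.8%, 53.9% and 52.6%, and its coding transcripts 44.3% ± 1.25 (SD, n = 3). Slc27a1, a fatty acid transporter, had almost no coding abundance: its coding transcripts held 2.91% ± 2.58. The leading retained-intron transcript of Slc27a1 held 60.8%, 56.6% and 52.4%, and other retained-intron transcripts 40.5% ± 1.93.

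Ufm1, a ubiquitin-like modifier, had 72.3%, 61.5% and 61.6% of TPM, highest in replicate 1, on a transcript of 381 bases. By reads this was 8.31%, 5.26% and 5.39%, from 159, 132 and 155 expected counts. Sri, the calcium-binding protein sorcin, was at 63.4% and 63.8% in replicates 1 and 2 and lower, at 54.4%, in replicate 3. Aida, an axin interactor, had a gene level of 60.7, 35.1 and 39.9 TPM, highest in replicate 1, with shares of 59.0%, 63.3% and 65.1%. In bulk RNA, such a difference in relative level cannot tell a smaller part of cells expressing Aida from less Aida RNA per cell. Ppp1r14b, an inhibitor of protein phosphatase 1, and Xpnpep1, an aminopeptidase that cleaves before proline, had mean shares of 58.0% and 50.4%.

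The remaining members were Tmem132a, Gm21188 and Grcc10. Tmem132a had 45.9, 40.3 and 33.9 TPM, of which 90.4%, 89.1% and 91.4% lay on 1 unspliced exon of 1371 bases at chr19:10859138-10860508 (minus strand). This exon also took 74.6%, 71.8% and 77.0% of reads, the highest mean share of reads among the members. It keeps introns of 368 and 412 bases, and the bases of the second are exonic in another coding transcript of the gene. The gene Slc15a3 overlaps 225 of its bases on the opposite strand and stood at 229, 163 and 191 TPM. No source used here gives the strand setting, so the reads of both genes over those bases cannot be told apart.

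Gm21188, at 42.4, 38.9 and 39.0 TPM, had shares of 73.7%, 74.1% and 75.3% on a transcript that is 1.06 times as long as the coding one. Of its windows, 66.5% occur in other genes, mainly Gm36161 at 52.6, 45.8 and 43.9 TPM. Grcc10, with 60%, 57.5% and 58.2%, shares 94.9% of its windows with Gm45234, a same-strand gene listed at 0 TPM. Values of both genes are therefore uncertain. Rps20 and Taf10 had more than 50% of windows in other genes as well, 56.2% and 52.9%, foremost Gm4332 at 4.18 to 6.33 TPM and Gm4799 at 0.06 to 0.11 TPM. Such windows were found in 20 members, with a median of 6.81% per member, against a median of 0 over the eligible genes. The share of eligible genes with any such window was not computed.

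**Figure D2:**
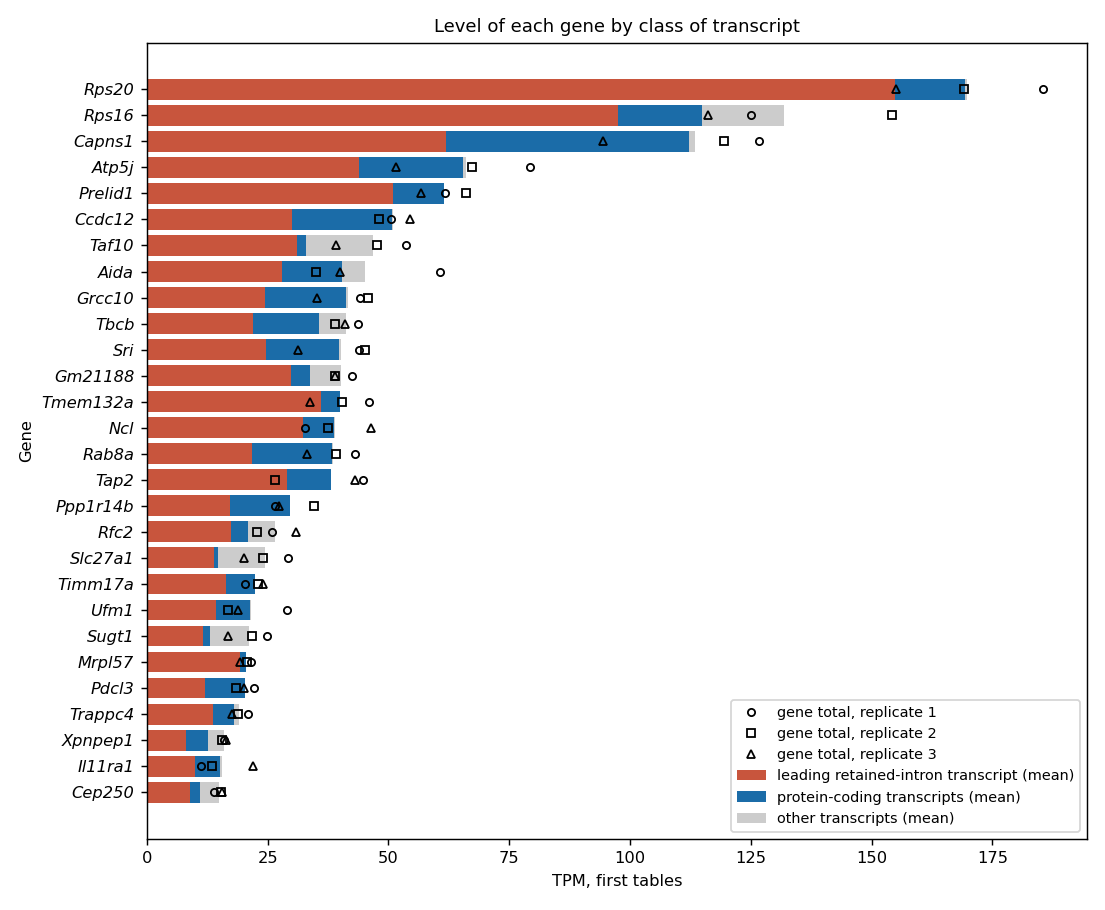
Mean TPM over 3 libraries (stacked bars, linear axis from 0) on the leading retained-intron transcript, all protein-coding transcripts and other transcripts of each member, with the gene total of each library as a marker. Rps20, Rps16 and Capns1 have the highest totals. On this scale, which is divided by length and is not a share of reads, the coding segment is thin in Slc27a1, Taf10, Mrpl57 and Sugt1.

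The authors' tables also give an interval for each transcript's TPM. These bounds belong to the TPM that chose the members, so they are given as description and support nothing. In 26 of 28 members the lower bound of the retained-intron transcript lay above the upper bound of every coding transcript of the gene in all 3 libraries. Capns1 and Ppp1r14b reached this in 2 libraries. In Capns1, replicate 3 had a lower bound of 41.2 TPM against a coding upper bound of 44.8. In Ppp1r14b, replicate 3 had 12.6 against 13.0. Coding transcripts together held a median of 25.3% ± 0.739 (SD, n = 3) of the members' TPM.

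How the members are built was not itself part of the rule. IsoPct is a share of TPM, which is scaled by length, so these features are not independent of the choice. Over the 28, the retained-intron transcript had a median length of 620.5 bases, against 865 over all eligible genes. Only 92.5 bases, or 12.0% of the transcript, lay outside the exons of coding transcripts, against 339 bases and 40.7% over the eligible genes. In 16 members fewer than 100 bases lay outside coding exons, and in 5 (Timm17a, Sri, Ufm1, Grcc10 and Tbcb) fewer than 30. The shares of the eligible genes under these limits were not computed, so how unusual these counts are is not known. The largest part outside coding exons was in Gm21188, with 1149 bases or 65.2%. Slc27a1, Ncl and Tmem132a also exceeded the eligible median in bases, with 688, 682 and 479. No list was tested, and these medians describe the members only.

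**Figure D3:**
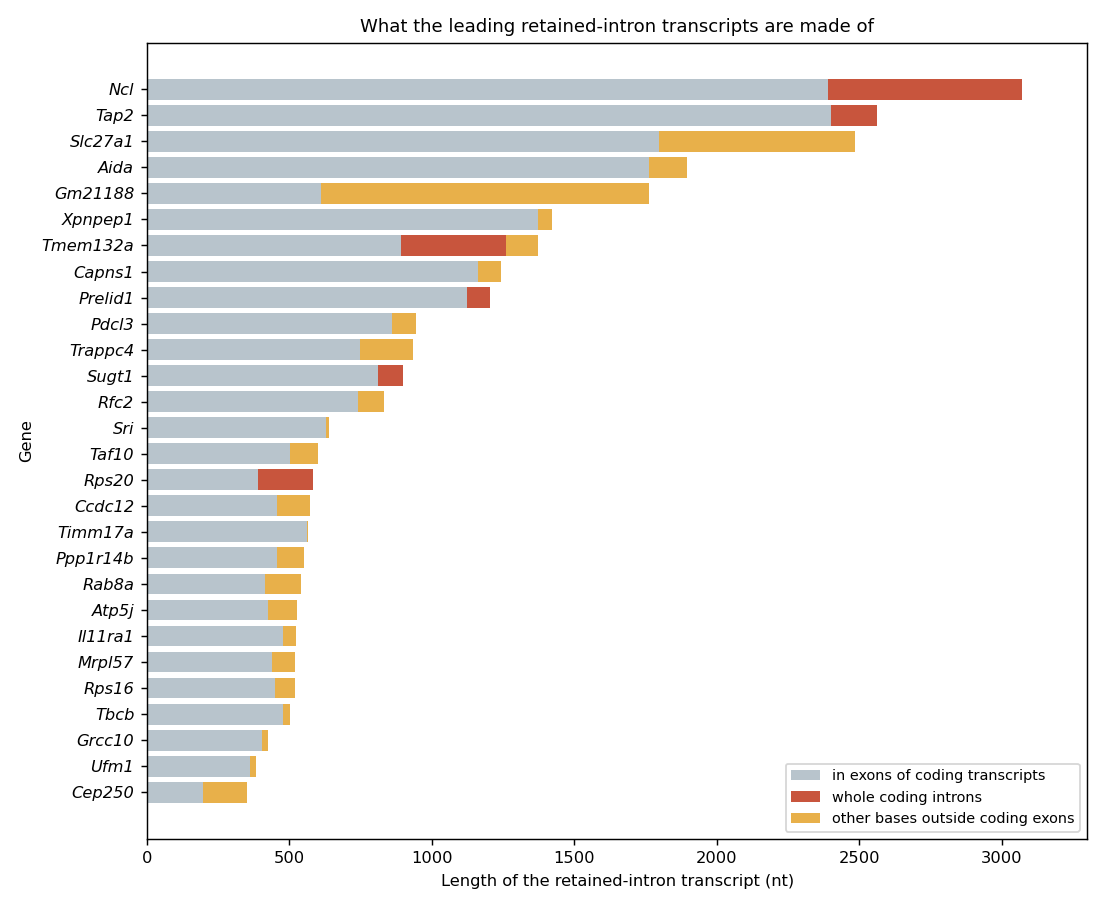
Length in bases of each member's leading retained-intron transcript, divided into bases in exons of coding transcripts, whole coding introns and other bases outside coding exons. In most members the part outside coding exons is a short end, and 6 members hold a whole intron.

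The 8 whole introns held by the 6 members all began with GT and ended with AG and lay inside the coding region. Their median length was 191 bases, from 82 in Prelid1 to 492 in Ncl, with a median GC content of 54.9%. The 1227 such introns of the eligible genes had a median of 296 bases and 51.2% GC, and 97.6% of them had GT and AG ends. Read on from the coding frame, 7 of the 8 introns contain a stop codon, with Prelid1 the exception, against 89.1% of the introns within coding regions of the eligible genes. The first stop begins at intron base 2 in the printed Ncl intron, at 65 in Sugt1 and at 184 of 192 in Rps20. Base composition differed widely, from 32.5% GC in the 492-base Ncl intron to 71.9% in that of Rps20.

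The retained-intron transcript was shorter than the leading coding transcript in 25 members, and under 0.5 of its length in 17. The median ratio was 0.449, against 0.469 over the eligible genes, so the members were close to the background in this measure. The ratio ran from 0.0441 in Cep250 to 1.47 in Pdcl3. In 13 members the coding transcript ran at least 500 bases past the 3′ end of the retained-intron one, and in 6 it ran no base past it. For these counts of members the matching shares of the eligible genes were not computed. Coding bases beyond the 3′ end had a median of 349.5, against 1113.5 over the eligible genes. Coding bases before the 5′ start made up a median of 32.3% of the coding transcript, against 11.1%.

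Counting reads in place of TPM gave another order of the members. The median share of expected counts was 47.8% ± 2.56 (SD, n = 3), and 11 of 28 members kept at least 50% of reads on the same transcript in every library. With any retained-intron transcript of the gene allowed, 12 did, since Cep250 passed through another of its transcripts. The share of eligible genes that did so was 0.616%. The 11 were Rps20, Rps16, Prelid1, Aida, Gm21188, Tmem132a, Ncl, Tap2, Mrpl57, Pdcl3 and Trappc4. In 3 members, Cep250, Ufm1 and Rab8a, the mean share was under 10% of reads. Both measures come from the same estimate, so this is a description of the same data on 2 scales.

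**Figure D4:**
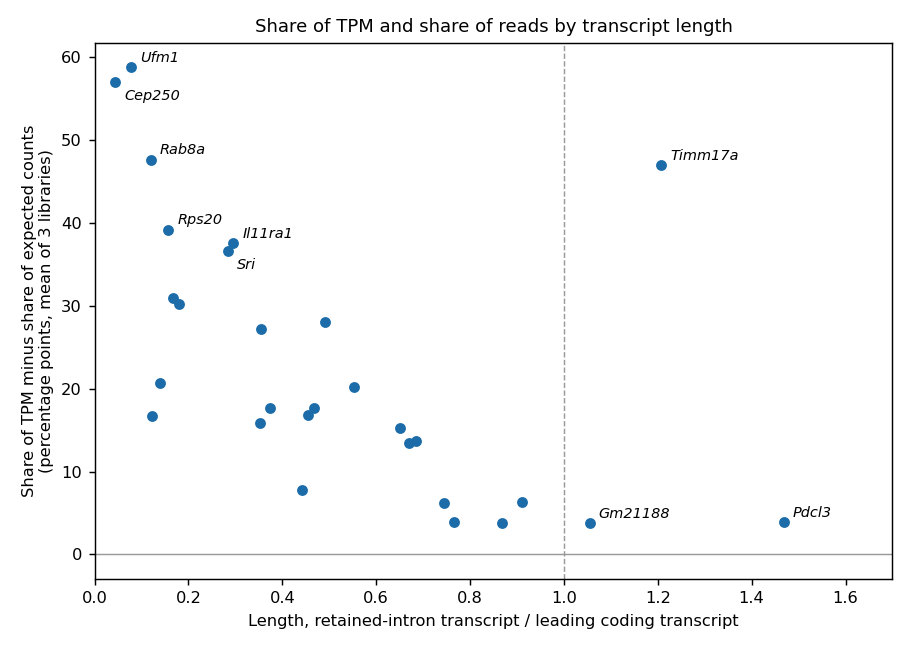
Share of TPM minus share of expected counts (percentage points, mean of 3 libraries) against the length of the retained-intron transcript divided by that of the leading coding transcript, 1 point per member. Ufm1, Cep250 and Rab8a, the shortest by ratio, differ by 47.6 points or more, and Timm17a differs by 46.98 points at a ratio of 1.21.

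The second transcript tables hold another quantification of the same reads, which the rule did not use. It is no further replicate. The retained-intron transcript held at least 50% of TPM in every library there in 22 of 28 members, against 1.07% (26) of the 2436 eligible genes. The members' median share was 63.6%, 65.4% and 62.5% in replicates 1, 2 and 3 (63.8% ± 1.45, SD, n = 3). Mrpl57, Tmem132a, Rps20, Ncl and Prelid1 had the 5 highest mean shares in these tables, from 80.3% to 94.5%, and were also the 5 highest by IsoPct. Overlap is 78.6% of the members and 84.6% of the genes called from the second tables.

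Capns1 differed most between the tables. Its second shares were 29.9%, 22.5% and 17.7%, all under the lowest of its first shares, and it was 1 of 2 members below 50% in all 3 libraries. Xpnpep1 was the other, at 43.0%, 48.1% and 43.9%. In 4 members the second share fell below 50% in part of the libraries. Atp5j had 62.4%, 65.0% and 49.5%, Tbcb 49.6%, 52.0% and 52.4%, Slc27a1 55.3%, 46.1% and 44.1%, and Il11ra1 47.0%, 55.9% and 68.2%. Rab8a went the other way, with 65.3%, 66.9% and 62.9%, above all of its first shares.

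**Figure D5:**
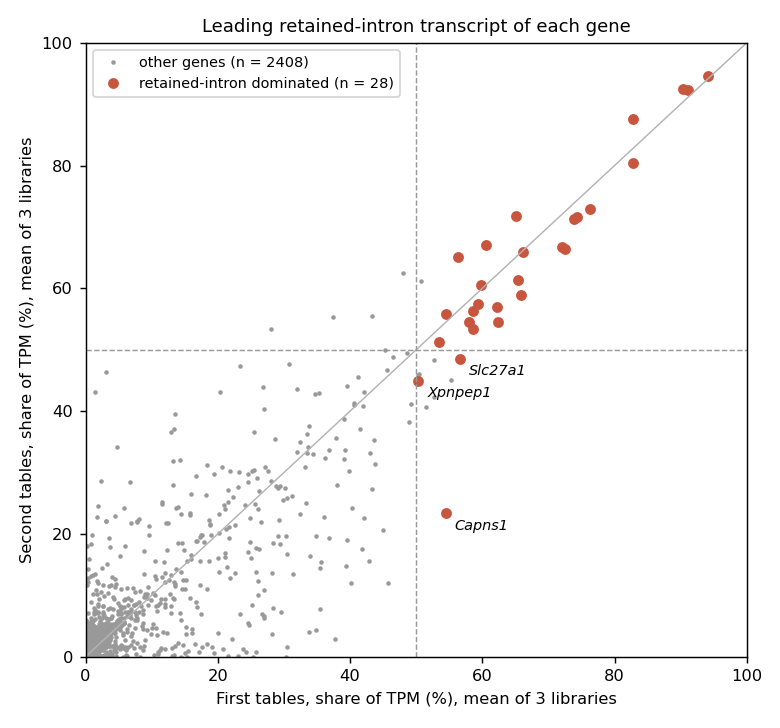
Mean share over 3 libraries of the leading retained-intron transcript, in percent of TPM, in the first (horizontal) and second (vertical) tables for the 28 members and the other 2408 eligible genes, with dashed lines at 50% and a line of equal shares. Of the members, Capns1 lies farthest below the line, at 54.4% and 23.3%, and most others lie near it.

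Gene levels were lower in the second tables throughout. On the scale of log2(TPM + 1), second minus first tables had a median of -0.98 ± 0.16 (SD, n = 3) over members and -0.96 ± 0.15 over all eligible genes. Rps16 and Tbcb were at least 2-fold lower in every library, 2 of 28 members against 5.75% of eligible genes, and none was 2-fold higher, against 0%. After scaling the tables to the median ratio, no member passed 2-fold in either direction, against 0.328% lower and 0.0411% higher.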

How the data were processed

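For every library there are gene and transcript tables laid out as by RSEM, plus further transcript tables laid out as by kallisto, per the file headers. All were made by the authors on mm10 with GENCODE M21, the first from transcriptome alignments and the second from reads, per the text deposited with them. Programs, versions and strandedness were not given in the sources used here. In the first tables are expected counts (estimated reads), TPM, IsoPct (a percent) and TPM interval bounds, as deposited by the authors. The second hold estimated counts and TPM, as deposited.

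Shares, structure and sums were computed with Python 3.11.15, numpy 2.4.6 and pandas 2.3.3, and figures with matplotlib 3.10.9. Of the second tables' transcripts, 97 of 141864 had no match in the first. The leading retained-intron or coding transcript has the highest mean IsoPct of its class. A whole intron is a coding-transcript intron inside 1 exon of the retained-intron transcript. Windows are all stretches of 31 bases of a transcript, searched on the same strand in transcripts of other genes. Log2 values used a pseudocount of 1. On simulated shares set far from the limit, the rule recovered 200 of 200 planted genes among 2422, with 0 others. Each count was drawn on its own transcript there, so this checks the code only. It cannot show how well reads are divided between transcripts that share bases. TPM depends on transcript length, counts on depth, and neither shows which reads cross an intron boundary.

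All members were named, with the nearest genes outside the threshold. The members and 18 gene lists were chosen with earlier results of these data known. Alternatives changed the TPM and IsoPct minimums, the measure, the pseudocount, the fold, the scaling, the coding reference and the libraries used.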

Additional observations from a re-analysis of the deposited data

How the results depend on the processing

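No paired analysis was possible because the series holds only 1 group. The count of 28 members became 52 with a gene minimum of 1 TPM, 47, 13 and 5 with an IsoPct of at least 40, 60 and 75, and 15 with shares of expected counts, of which 12 were members. It ran from 29 to 32 when a library was left out, which only loosens a rule that asks for every library, so the 28 are kept by construction. It was 37 and 20 with minimums of 5 and 20 TPM, 39 with retained-intron transcripts summed, 35 with the mean share, 26 with the second tables and 26 with IsoPct from posterior means, an alternative chosen after seeing the data. By the second tables, 22 members held 50% or more, 22 to 24 when a library was left out, and 11 by estimated counts. The median second share of 63.8% ran from 63.1% to 64.5% without a library and was 42.8% by estimated counts. The median share of expected counts of 47.8% ran from 46.7% to 49.2%, and the mean over members was 44.1%. The length ratio of 0.449 was 0.353 against the longest coding transcript, also chosen after seeing the data. The 2 members at least 2-fold lower in the second tables became 4 with a pseudocount of 0.1, 25 at 1.5-fold and 0 after scaling to the median ratio. Without a library they ranged from 2 to 12, the 12 being without replicate 2. Single shares moved beyond their SD in 28 of 28 members by expected counts, 18 by the second tables and 2 by posterior means. For the other moves the cause was not tested; the stricter or looser limits change which genes can pass by construction. Low counts limit Cep250, Il11ra1 and Ufm1 most.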

Other observations

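Several genes outside the 28 members were led by a retained-intron transcript on another scale, and they were picked after their values were seen. Pirb, an inhibitory receptor of myeloid cells, had 196, 132 and 124 TPM in replicates 1, 2 and 3. Its retained-intron transcript held 49.0%, 39.7% and 55.3% by IsoPct and 61.4%, 61.0% and 64.9% by the second tables. Psmb8, a catalytic subunit of the immunoproteasome, had 240, 170 and 192 TPM. Its transcript held 44.7%, 47.6% and 53.6% by IsoPct and 55.7%, 58.4% and 64.0% by expected counts, highest in replicate 3 on both scales.

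Taf1d and Tmed7 were led by reads but not by TPM. The Taf1d transcript took 56.7%, 53.2% and 61.0% of expected counts with an IsoPct of 14.9, 11.8 and 14.0. The Tmed7 transcript took 75.7%, 71.7% and 83.1% with an IsoPct of 31, 26.8 and 41.6. Hpgds, a prostaglandin D2 synthase, showed the opposite, with 56.8%, 51.3% and 52.3% of TPM in the second tables, 29.7%, 22.4% and 32.0% by IsoPct, and 2.38%, 1.72% and 2.76% of reads. Atp6v1d, a subunit of the proton pump of lysosomes, and Mfsd4a were the other genes called only from the second tables.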
